A study of Mus musculus with 20 samples.

Results

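Macrophage identity is set by a small group of transcription factors, and the transcripts of 9 of them were followed here across 5 treatments of cultured macrophages: Spi1, Maf, Cebpa, Cebpb, Cebpd, Klf2, Klf4, Nr1h3 and Pparg. They were taken by name as factors with known roles in these cells, with earlier results of these data in view, and make up 9 of the 78409 gene rows listed. The cells in all 5 groups were bone marrow-derived macrophages (BMDMs) of wild-type female C57BL/6J mice, treated on culture day 7, with 4 libraries per group. One group received PBS. The other groups received material from the airway lining fluid of mice challenged with ovalbumin, a model of allergic airway inflammation: the extracellular vesicle fraction (EVFx) or the protein fraction (ProteinFx), each from RNY1+/+ donors or from RNY1-/- donors made by CRISPR deletion of RNY1, a small noncoding Y RNA. The genotype is thus that of the fluid donors, and the macrophages carried RNY1 in every group. Vesicles and proteins were separated by size exclusion chromatography and kept for 5 days before use. EVFx was dosed by particle number and ProteinFx by protein mass, at 0.75 µg per µL, so the doses of the 2 fractions are not matched.

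Macrophages arise from progenitors in which PU.1, the product of Spi1, opens enhancers together with C/EBP factors. MAF holds mature macrophages in a non-dividing state and drives genes for scavenging and complement. C/EBPα is the C/EBP of myeloid progenitors and resting cells, and C/EBPβ and C/EBPδ are induced by inflammatory signals. KLF2 and KLF4 are zinc finger factors that restrain inflammatory genes, and KLF4 also takes part in monocyte development and in the response to interleukin 4. LXRα (Nr1h3) and PPARγ (Pparg) are nuclear receptors that answer to oxysterols and fatty acids and control lipid handling.

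Libraries were made from the 3′ ends of polyadenylated RNA with molecular identifiers, and held 2510005 to 8277366 counts each. Levels below are CPM, a count relative to the total of its library, scaled between libraries by the trimmed mean of M values (TMM-scaled CPM). They compare 1 gene between groups and not different genes with each other. The 10 macrophage markers were all present, with a summed level of 13943.9 to 20781.9 TMM-scaled CPM per library, and 17732.7 to 20781.9 in the ProteinFx libraries. This sum joins markers that moved in opposite directions. With RNY1+/+ ProteinFx the means of Ctss (7660.6) and Adgre1 (3042.6) lay above those with PBS (4147.2 and 800.3). Those of Lyz2 (4826.0) and Cd68 (874.2) lay below (7854.3 and 1458.4 with PBS). Of the 5 dendritic cell markers, all were at or under 3 counts in every library, as were 5 of 6 T cell markers, 3 of 5 eosinophil markers (2 of them, Epx and Il5ra, at 0) and 3 of 10 neutrophil markers (Ly6g, Elane and Mpo). The eosinophil list summed to 6.79 to 12.36 with PBS, 0.833 to 2.63 with EVFx and 11.46 to 21.49 with ProteinFx, and was mostly Ccr3, a chemokine receptor, at means of 7.86 with PBS, 0.951 and 1.62 with RNY1+/+ and RNY1-/- EVFx and 16.3 and 12.5 with RNY1+/+ and RNY1-/- ProteinFx, with the other 4 markers at means of at most 1.40. The neutrophil list summed to 158 to 298 with EVFx and 239 to 369 in the other groups. It was mostly S100a8, S100a9 and Mmp8, at means of 147.1, 121.5 and 34.88 with PBS. Over all libraries the fibroblast list summed to 11.53 to 48.42 and the epithelial cell list to 5.62 to 33.36. The B cell list summed to 1.09 to 4.04 and the mast cell list to at most 0.838. The part of these lists in the results was not tested. Mitochondrial transcripts took 5.58% to 7.32% of counts with PBS, 3.80% to 4.99% with RNY1+/+ EVFx and 4.75% to 6.14% in the other groups. Libraries stood apart within 2 groups: the squared difference between 2 replicates, over that expected from counting, was 2.58 for PBS replicates 1 and 2 but 34.9 and 40.1 for each of these against replicate 3. In RNY1-/- ProteinFx it was 3.80 for replicates 1 and 2 and 2.50 for replicates 3 and 4 but 15.2 to 17.9 across these pairs. No source used here states if the libraries within a group stem from separate mice, fluid pools or culture wells, so p-values measure the spread between these libraries, which may be technical.

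All 9 genes were measured in all 20 libraries and passed the filter on low values in all 9 comparisons. The lowest level of any of them in a library was 4.12 TMM-scaled CPM, for Klf2, so none passed the filter through only 1 of the groups. Against PBS, 8 of 9 genes were past the test (edgeR quasi-likelihood, Benjamini-Hochberg adjusted p under 0.05 over all genes tested) with RNY1+/+ EVFx, 4 higher and 4 lower, where 44.5% of all 10797 genes were. The counts were 6 of 9 with RNY1-/- EVFx (background 58.3%), 8 of 9 with RNY1+/+ ProteinFx (55.2%) and 5 of 9 with RNY1-/- ProteinFx (35.7%). Over all genes, 21.7% and 22.8% were higher and lower with RNY1+/+ EVFx, 27.7% and 30.7% with RNY1-/- EVFx, 25.9% and 29.3% with RNY1+/+ ProteinFx and 16.7% and 19% with RNY1-/- ProteinFx. With a further limit of an absolute log2 fold change above 1 the counts were 7 (16.4%), 6 (22.5%), 5 (21.3%) and 3 (14.3%) of 9 in the same order. The groups did not overlap with PBS for 7, 6, 7 and 5 of the 9 genes, where 41.2%, 49.6%, 45.2% and 30.9% of 10638 genes did not. In all 4 comparisons Cebpb, Cebpd and Klf4 were higher and Cebpa and Pparg lower. The 4 comparisons share the PBS libraries and are not independent of each other. In bulk RNA, fewer cells of a kind and less transcript per cell cannot be told apart.

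**Figure D1:**
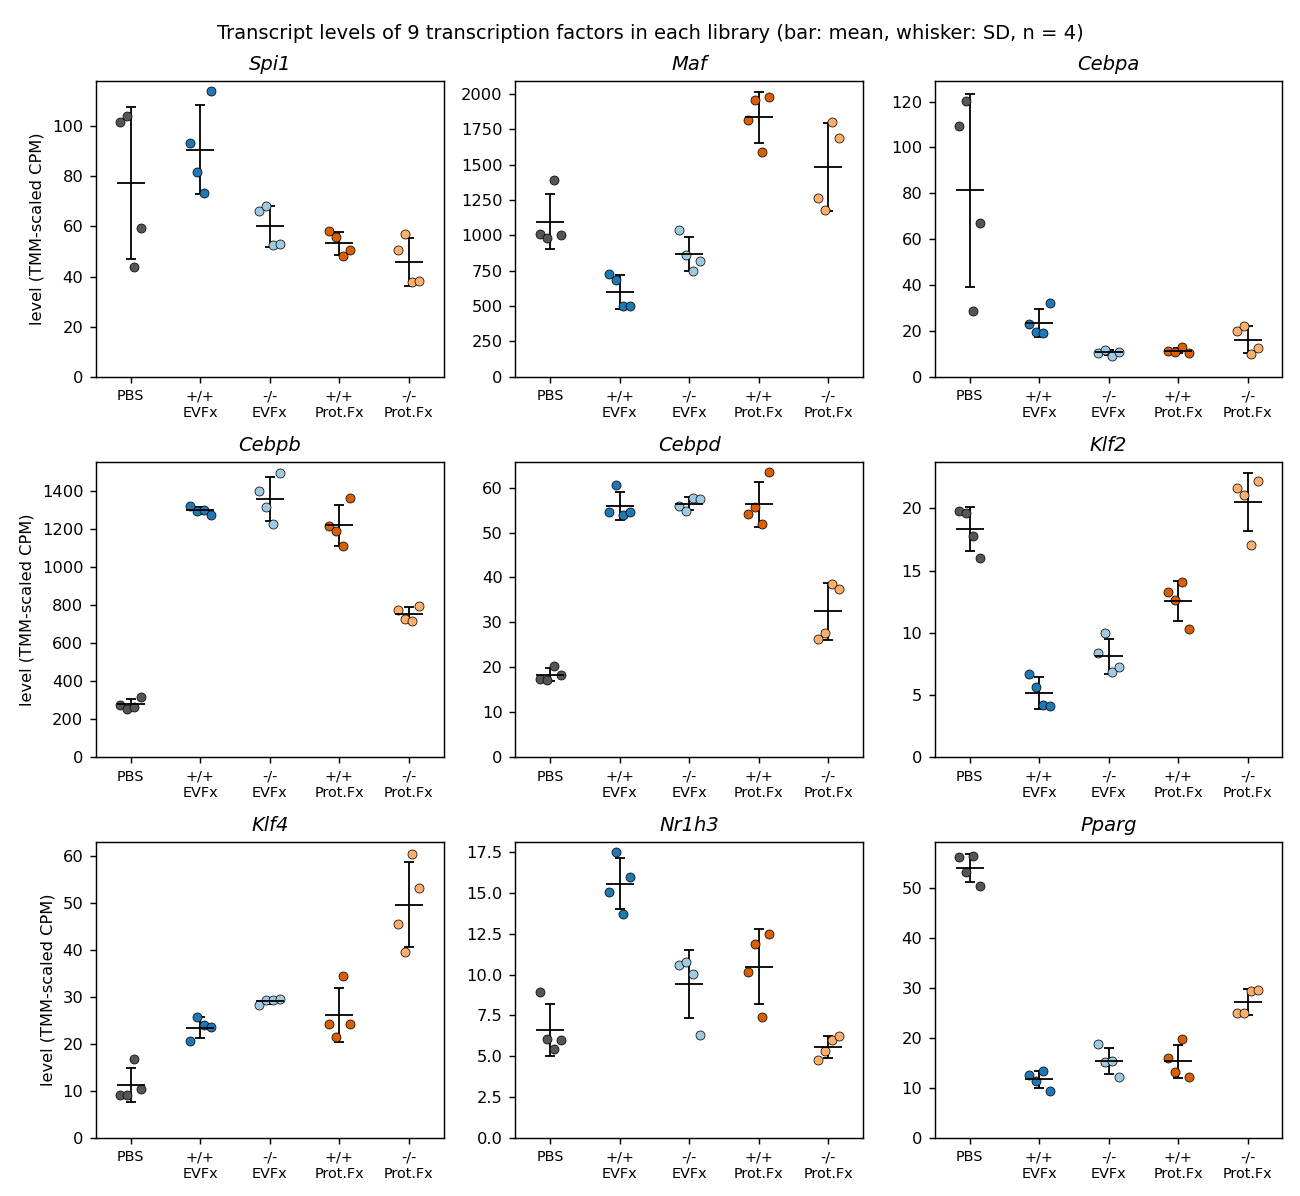
Level of each of the 9 genes in each of the 20 libraries, in TMM-scaled CPM on a linear axis from 0. Points are libraries of 5 groups (PBS, RNY1+/+ and RNY1-/- EVFx, RNY1+/+ and RNY1-/- ProteinFx, the last 2 written Prot.Fx), bars are means and whiskers SD (n = 4). Cebpb, Cebpd, Klf4 and Pparg split PBS from every treated group without overlap, whereas each group of Spi1 overlapped with the next in order of mean.

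Promoter sequence was available for 6 of the 9 genes (Cebpa, Cebpb, Klf2, Klf4, Nr1h3 and Pparg) in RefSeq windows of GRCm38.p6 that run from 250 bases before to 50 bases after a transcription start, and 8 motifs were searched on both strands. This build differs from the GRCm39 alignment, so its coordinates locate only the sequences printed. Short windows are shown for the 2 genes that fell with every fraction (Cebpa and Pparg) and for Klf2, which was ordered by fraction and genotype, with the motif in capitals and 10 bases on each side.
Cebpa, TATA box (chr7:35119253-35119278, plus strand): cccgaccctcTATAAAagcggtcccc
Pparg, C/EBP motif (chr6:115422040-115422067, plus strand): ccaaccaatcTTTTGCAAgacatagaca
Klf2, MEF2 motif (chr8:72318934-72318963, plus strand): tataccgcggCTAAATTTAGgctgagcccg
The TATA box of Cebpa (TATAAA) ended 24 bases before the start, and the motif was present in 13.6% of all 32851 promoter windows. It was also found in Pparg, on the opposite strand and 23 bases before 1 of its annotated starts. A match in Cebpb, which rose with every fraction, lay after the annotated start and not before it. The 6 genes had 9 windows, and a gene with several windows, as Pparg, has more chances of a match than these shares per window state. The C/EBP motif of Pparg (TTGCNNAA, here on the opposite strand) ended 8 bases before 1 of its annotated starts, and 10.8% of windows held it. The MEF2 motif of Klf2 ended 108 bases before the start, with a share of 3.69%. GC boxes (GGGCGG) were found in Cebpb, Klf2, Klf4 and Pparg and in 35.7% of windows. No window of the 6 genes held the NF-κB motif (0.155% of windows), TTCNNNGAA (STAT, 8.30%) or GAGGAAGT (PU.1, 3.20%), and CCAAT (37.4%) was found in Pparg alone. These matches describe the letters only.

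Spi1, which encodes PU.1, did not pass the test against PBS with any fraction, although it did so in some under other settings. Its level was 102, 104, 43.99 and 59.4 TMM-scaled CPM in PBS replicates 1 to 4, a spread of 2.36-fold, with the high values in replicates 1 and 2. It was 93.4, 81.5, 73.3 and 114 with RNY1+/+ EVFx and 66.2, 68.1, 52.7 and 53.1 with RNY1-/- EVFx, so that the highest RNY1-/- library lay below the lowest RNY1+/+ library. With ProteinFx it was 58.1, 55.7, 48.3 and 50.8 for RNY1+/+ and 50.4, 56.8, 37.8 and 38.1 for RNY1-/-, and these groups overlapped. The log2 fold changes against PBS ran from 0.26 with RNY1+/+ EVFx to -0.73 with RNY1-/- ProteinFx (adjusted p = 0.435 and 0.0572). Between genotypes Spi1 was lower in RNY1-/- EVFx than in RNY1+/+ EVFx, by a log2 difference of -0.59 (SE 0.13, adjusted p = 0.00299), and in ProteinFx the difference of -0.20 (adjusted p = 0.518) lay in an interval of -0.49 to 0.10 at 2 SE each way. That ProteinFx difference was -0.49 (adjusted p = 0.0307) without RNY1-/- replicates 1 and 2. Spi1 values depended on the setting. With RNY1-/- ProteinFx the difference from PBS, between -0.69 and -0.78, was past the test with DESeq2 (adjusted p = 0.0365), total-count scaling (0.0469), no filter (0.00104), all 20 libraries in 1 fit (0.00794) and the replicate number as a block (6.62e-05). With RNY1+/+ ProteinFx it was so with total-count scaling (-0.68, adjusted p = 0.0295), no filter (-0.53, 0.00209) and all 20 libraries in 1 fit (-0.53, 0.0363). With the GC and length trends of each library removed, Spi1 was higher than PBS with RNY1+/+ EVFx (0.33, adjusted p = 0.0196) and RNY1-/- EVFx (0.29, adjusted p = 0.039), whereas without PBS replicate 3 the RNY1-/- EVFx value was -0.50 (adjusted p = 0.0155). The same removal of trends took the difference between EVFx genotypes to -0.04 (adjusted p = 0.717). Without PBS replicates 3 and 4 the difference of RNY1+/+ ProteinFx from PBS was -0.94 (adjusted p = 2.04e-06), and without replicates 1 and 2 it was 0.04. Without PBS replicate 3 alone the difference from PBS was -0.69 (adjusted p = 0.00115) with RNY1+/+ ProteinFx and -0.91 (adjusted p = 0.00412) with RNY1-/- ProteinFx, and without PBS replicates 1 and 2 it was 0.81 (adjusted p = 0.00658) with RNY1+/+ EVFx.

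Maf moved in opposite directions with the 2 fractions of RNY1+/+ fluid. PBS libraries held 1013, 983, 1393 and 1005 TMM-scaled CPM, RNY1+/+ EVFx libraries 725, 688, 498 and 499.5 and RNY1+/+ ProteinFx libraries 1818, 1959, 1589 and 1979. The 3 groups did not overlap. Maf thus fell with RNY1+/+ EVFx (log2 fold change -0.84, SE 0.17, adjusted p = 0.00196) and rose with RNY1+/+ ProteinFx (0.77, SE 0.14, adjusted p = 0.000808), and the direct comparison of ProteinFx with EVFx gave 1.62 (SE 0.13, adjusted p = 9.56e-08). With RNY1-/- fluid the values were 1035, 861, 752 and 819 for EVFx and 1264.5, 1179.8, 1806 and 1693 for ProteinFx. Their differences from PBS (-0.32 and 0.45, adjusted p = 0.0787 and 0.0636) missed the threshold, and both lay nearer to PBS than their RNY1+/+ counterparts. Maf was higher in RNY1-/- than in RNY1+/+ EVFx (0.53, SE 0.13, adjusted p = 0.00564) and was -0.31 in ProteinFx (adjusted p = 0.27). These 2 genotype differences differed from each other by -0.84 (SE 0.21, adjusted p = 0.00945). The call rests in part on RNY1-/- ProteinFx replicates 1 and 2, since without them the difference was -0.59 (adjusted p = 0.0952). Between ProteinFx genotypes Maf was -0.58 (adjusted p = 0.00256) without RNY1-/- replicates 3 and 4. The RNY1-/- EVFx value against PBS was past the test when scaled by total counts (-0.57, adjusted p = 0.00672), with GC and length trends removed (-0.41, 0.00884) and without RNY1-/- EVFx replicate 1 (-0.42, 0.0432). The RNY1-/- ProteinFx value, between 0.45 and 0.59, was past it with DESeq2 (adjusted p = 0.044), no filter (0.0188), all 20 libraries in 1 fit (0.0229), the replicate number as a block (0.000694) and without PBS replicate 3 (0.0102) or RNY1-/- ProteinFx replicate 2 (0.0378).

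The C/EBP genes split: Cebpa fell with every fraction, while Cebpb and Cebpd rose. Cebpa was 109, 120.3, 28.7 and 66.9 TMM-scaled CPM in the PBS libraries, a 4.19-fold range with replicate 3 lowest. With EVFx it was 22.9, 19.6, 19.2 and 32.2 for RNY1+/+ and 10.3, 11.9, 9.22 and 10.99 for RNY1-/-. With ProteinFx it was 11.4, 10.8, 13.04 and 10.5 for RNY1+/+ and 19.9, 22.3, 9.94 and 12.5 for RNY1-/-. Only PBS replicate 3 came within the range of a treated group, that of RNY1+/+ EVFx. The log2 fold changes against PBS were -1.76 (SE 0.36, adjusted p = 0.00244) and -2.91 (SE 0.37, adjusted p = 7.26e-05) for RNY1+/+ and RNY1-/- EVFx. For RNY1+/+ and RNY1-/- ProteinFx they were -2.80 (SE 0.37, adjusted p = 8.81e-05) and -2.26 (SE 0.41, adjusted p = 0.00246). Without PBS replicates 1 and 2 the fall shrank to -1.03, -2.17, -2.07 and -1.51 in the same order, and all 4 remained past the test.

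Cebpb, a C/EBP induced by inflammatory signals, was 277, 256, 266 and 318 TMM-scaled CPM with PBS. It rose to 1322, 1294, 1301 and 1275.5 with RNY1+/+ EVFx and to 1399, 1316, 1224 and 1493 with RNY1-/- EVFx. With ProteinFx it reached 1217.5, 1188, 1109 and 1362 for RNY1+/+ but 775, 729, 717 and 793 for RNY1-/-. All treated libraries lay above all PBS libraries, and those of RNY1-/- ProteinFx lay below every other treated library. The log2 fold changes against PBS were 2.24 (SE 0.10), 2.30 (SE 0.12), 2.16 (SE 0.12) and 1.45 (SE 0.11), with the largest of their adjusted p-values at 5.66e-06. Cebpd, also an inflammation-induced C/EBP, was 17.4, 17.2, 20.3 and 18.4 with PBS, 54.6, 60.6, 53.9 and 54.5 with RNY1+/+ EVFx, 55.9, 54.7, 57.7 and 57.5 with RNY1-/- EVFx, 54.05, 55.7, 51.9 and 63.5 with RNY1+/+ ProteinFx and 26.4, 27.6, 38.6 and 37.3 with RNY1-/- ProteinFx. Its log2 fold changes were 1.64, 1.64, 1.65 and 0.83 (SE 0.11, 0.11, 0.12 and 0.16), and the last had an adjusted p of 0.00356, or 0.0537 without PBS replicates 1 and 2.

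The difference between donor genotypes was not the same in the 2 fractions for the C/EBP genes. In ProteinFx, Cebpb and Cebpd were lower with RNY1-/- than with RNY1+/+, by log2 differences of -0.69 (SE 0.10, adjusted p = 0.00211) and -0.82 (SE 0.14, adjusted p = 0.00484). In EVFx their differences of 0.07 and 0.01 had intervals at 2 SE of -0.08 to 0.21 and -0.13 to 0.15, and their sign changed with total-count scaling. Cebpa was lower with RNY1-/- than with RNY1+/+ EVFx (-1.14, SE 0.17, adjusted p = 0.000353), and in ProteinFx its value was 0.57 (adjusted p = 0.18), which passed the test without a filter (0.60, adjusted p = 0.0458), without RNY1-/- replicate 3 (0.71, 0.0344) and without RNY1-/- replicates 3 and 4 (0.90, 0.000806). The difference between fractions in the genotype difference was past the test for Cebpa (1.73, SE 0.30, adjusted p = 0.00196), Cebpb (-0.76, SE 0.12, adjusted p = 0.00159) and Cebpd (-0.85, SE 0.16, adjusted p = 0.00266). Cebpa has 62.6% and Cebpb 67.2% GC in their exons, at percentiles 99.3 and 99.9 of the genes tested. With GC and length trends removed, Cebpa in EVFx was -0.52 (adjusted p = 0.00485), Cebpb and Cebpd in EVFx became past the test at 0.69 (adjusted p = 0.000708) and 0.21 (adjusted p = 0.0482), and the ProteinFx calls of both held. The difference between the genotype differences then became 1.05 for Cebpa (adjusted p = 0.00182) and -1.36 for Cebpb (adjusted p = 0.000431). Against PBS the same correction moved Cebpa to -2.06, -1.98 and -1.48 and Cebpb to 3.27, 3.09 and 2.37 with RNY1-/- EVFx, RNY1+/+ ProteinFx and RNY1-/- ProteinFx, and each of these remained past the test.

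Of 17 genes listed as C/EBP targets, 11 or 12 were tested. With RNY1+/+ EVFx 5 rose and 6 fell, with RNY1-/- EVFx 4 and 4, with RNY1+/+ ProteinFx 5 and 2, and with RNY1-/- ProteinFx 4 and 2. The medians were -0.20, -0.16, 0.66 and 0.30 on the log2 scale, where all genes had -0.03. Over all genes 44.5%, 58.3%, 55.2% and 35.7% were past the test in these comparisons. Ptgs2 (cyclooxygenase 2) and Il1b, which encodes interleukin 1β, rose most with RNY1+/+ EVFx. Ptgs2 went from 3 to 5 counts per PBS library to 306 to 482, and Il1b from 0 to 4 counts to 256 to 473. Saa3, an acute phase gene, rose by a log2 fold change of 4.78 (SE 0.37, adjusted p = 1.08e-06) with RNY1+/+ ProteinFx. Between genotypes in ProteinFx 2 of 11 targets were lower and 0 higher (3.37% of all genes were lower). These were Il1b (-2.74, SE 0.47, adjusted p = 0.00478), and Saa3 (-2.22, SE 0.23, adjusted p = 0.000194). Il1b varied widely with RNY1+/+ ProteinFx, at 96 to 502 counts per library (mean 40.94, SD 33.69 TMM-scaled CPM), and held 9 to 53 counts with RNY1-/- ProteinFx. In EVFx 3 targets were higher and 5 lower, and the 2 largest differences were also those of Il1b and Saa3, at -1.21 and -1.11 (adjusted p = 0.000279 and 0.000247), where 25.5% and 26.6% of all genes were higher and lower. Cebpb and Cebpd were past the test there only with GC and length trends removed, and were then higher.

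**Figure D2:**
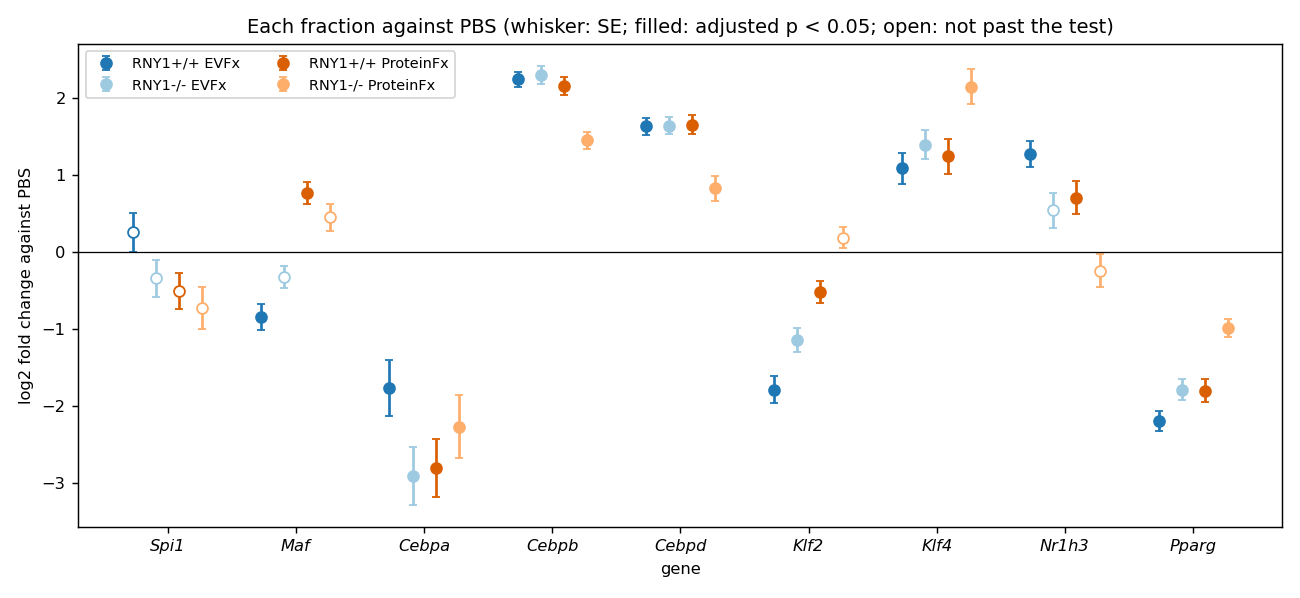
Log2 fold change of each gene against PBS for the 4 fractions (colours), with whiskers for 1 SE and open circles where the adjusted p was 0.05 or above. Cebpb, Cebpd and Klf4 are above 0 and Cebpa and Pparg below 0 in all 4, Klf2 runs from -1.78 (RNY1+/+ EVFx) to 0.19 (RNY1-/- ProteinFx, open), and its value of -0.52 with RNY1+/+ ProteinFx turns to 0.21 with GC and length trends removed.

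Klf2 and Klf4 moved apart. Klf2 held 19.8, 19.6, 17.8 and 16.03 TMM-scaled CPM with PBS and was lowest with RNY1+/+ EVFx, at 6.72, 5.66, 4.17 and 4.12. RNY1-/- EVFx gave 8.35, 9.96, 6.85 and 7.27. RNY1+/+ ProteinFx gave 13.3, 12.6, 14.1 and 10.3, and RNY1-/- ProteinFx 21.6, 21.1, 17.1 and 22.2. Ordered by mean, the groups ran RNY1+/+ EVFx, RNY1-/- EVFx, RNY1+/+ ProteinFx, PBS and RNY1-/- ProteinFx, and only the last 2 overlapped. The fall against PBS was -1.78 (SE 0.18, adjusted p = 1.31e-05) with RNY1+/+ EVFx and -1.14 (SE 0.16, adjusted p = 0.000114) with RNY1-/- EVFx on the log2 scale. With ProteinFx the values were -0.52 (SE 0.15, adjusted p = 0.0115) for RNY1+/+ and 0.19 (SE 0.14, adjusted p = 0.3) for RNY1-/-. Klf2 is GC-rich (61.6%, percentile 98.9), and with GC and length trends removed these became -0.41 (adjusted p = 0.104) for RNY1-/- EVFx, 0.21 (adjusted p = 0.397) for RNY1+/+ ProteinFx and 0.88 (adjusted p = 0.00624) for RNY1-/- ProteinFx. The fall with RNY1+/+ ProteinFx was also lost without PBS replicates 1 and 2 (-0.43, adjusted p = 0.0877). Klf2 rested on 20 to 162 counts per library.

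Klf4 rose with every fraction and most with RNY1-/- ProteinFx. PBS libraries held 8.98, 9.17, 16.6 and 10.3 TMM-scaled CPM, with replicate 3 highest. EVFx libraries held 20.6, 25.8, 23.9 and 23.6 for RNY1+/+ and 28.2, 29.4, 29.4 and 29.5 for RNY1-/-. ProteinFx libraries held 24.3, 21.3, 34.4 and 24.2 for RNY1+/+ and 45.4, 39.5, 60.3 and 53.2 for RNY1-/-, and every RNY1-/- ProteinFx library lay above every library of the other groups. The log2 fold changes against PBS were 1.09 (SE 0.20, adjusted p = 0.00111) and 1.40 (SE 0.19, adjusted p = 0.00011) for RNY1+/+ and RNY1-/- EVFx, and 1.24 (SE 0.22, adjusted p = 0.000781) and 2.15 (SE 0.22, adjusted p = 5.59e-05) for RNY1+/+ and RNY1-/- ProteinFx. Counts were fractional in some libraries for Klf4, Maf, Cebpa, Cebpb and Spi1, since the counting shared out reads that mapped to several places.

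Both KLF genes were higher with RNY1-/- fluid in both fractions. In EVFx the log2 difference was 0.65 (SE 0.20, adjusted p = 0.0138) for Klf2 and 0.31 (SE 0.09, adjusted p = 0.013) for Klf4. In ProteinFx it was 0.73 (SE 0.15, adjusted p = 0.0118) for Klf2 and 0.92 (SE 0.17, adjusted p = 0.00671) for Klf4. For Klf2 the 2 differences were 0.07 apart (adjusted p = 0.825, interval -0.41 to 0.56 at 2 SE), and for Klf4 the ProteinFx difference exceeded that in EVFx by 0.60 (SE 0.20, adjusted p = 0.0282), a call lost with GC and length trends removed (0.22, adjusted p = 0.561), with all 20 libraries in 1 fit (0.0686), without RNY1-/- ProteinFx replicates 3 and 4 (0.0647) and without RNY1+/+ EVFx replicate 2 or RNY1+/+ ProteinFx replicate 1, 2 or 4 (adjusted p = 0.0510 to 0.0581). With GC and length trends removed the EVFx difference of Klf2 was 1.24 (adjusted p = 0.000613). In EVFx, Klf2 lost its call without RNY1+/+ replicate 4 or RNY1-/- replicate 2 (adjusted p = 0.0504 and 0.0503) and Klf4 without RNY1+/+ replicate 1 (0.0552), without a filter (0.0938) and with all 20 libraries in 1 fit (0.125). In ProteinFx, Klf2 lost its call without RNY1+/+ replicate 4 (0.0582). Of 14 genes listed as KLF2 and KLF4 targets, 9 to 11 were tested. The list mixes genes that the KLFs restrain with genes that they induce. With RNY1+/+ EVFx 4 of 9 rose and 4 fell (21.7% and 22.8% of all genes), and with RNY1-/- EVFx 4 rose and 3 fell (27.7% and 30.7%). With RNY1+/+ ProteinFx 8 of 11 rose and 1 fell, and with RNY1-/- ProteinFx 9 rose and 1 fell (25.9% and 16.7% of all genes rose), with medians of 1.22 and 0.90 on the log2 scale. Between genotypes 4 of 10 were higher and 1 lower in EVFx (25.5% and 26.6% of all genes), and 1 of 11 higher and 3 lower in ProteinFx (2.20% and 3.37%). Arg1, which encodes arginase 1, rose from 3 to 9 counts per PBS library to 571 to 763 with RNY1+/+ ProteinFx and 415 to 1383 with RNY1-/- ProteinFx, but held 0 to 5 with either EVFx. Tnf was lower with RNY1-/- than with RNY1+/+ fluid in EVFx (-1.22, SE 0.13, adjusted p = 0.000199) and in ProteinFx (-1.36, SE 0.22, adjusted p = 0.00312), and Ccl2, a monocyte attractant, in ProteinFx (-1.13, SE 0.22, adjusted p = 0.00838).

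Nr1h3, the gene of LXRα, was highest with RNY1+/+ EVFx. Its level was 8.92, 6.02, 5.45 and 6.01 TMM-scaled CPM with PBS, 15.1, 17.5, 13.7 and 16 with RNY1+/+ EVFx and 10.6, 10.8, 10.01 and 6.31 with RNY1-/- EVFx. It was 10.2, 11.9, 7.42 and 12.5 with RNY1+/+ ProteinFx and 4.75, 5.34, 5.96 and 6.26 with RNY1-/- ProteinFx. The RNY1+/+ EVFx libraries lay above all others, and the RNY1-/- ProteinFx libraries overlapped those with PBS. Nr1h3 rose with RNY1+/+ EVFx (1.27, SE 0.17, adjusted p = 0.000126) and RNY1+/+ ProteinFx (0.71, SE 0.22, adjusted p = 0.0175). With RNY1-/- EVFx it was 0.54 (adjusted p = 0.0554), and with RNY1-/- ProteinFx -0.24 (adjusted p = 0.389). It was lower with RNY1-/- than with RNY1+/+ in EVFx (-0.72, SE 0.16, adjusted p = 0.00255) and in ProteinFx (-0.94, SE 0.20, adjusted p = 0.017), and these differences were -0.23 apart (adjusted p = 0.507). The RNY1-/- EVFx value against PBS was past the test with the replicate number as a block (adjusted p = 0.0366), all 20 libraries in 1 fit (0.0198), GC and length trends removed (1.03, 0.000799) and without PBS replicate 1 or RNY1-/- EVFx replicate 4 (0.0229 and 0.0183). With GC and length trends removed the difference between EVFx genotypes was -0.25 (adjusted p = 0.205), while that in ProteinFx held. The ProteinFx call was lost without RNY1+/+ replicate 4 (adjusted p = 0.0829) or RNY1-/- replicate 1 (0.0603), and without RNY1-/- replicates 1 and 2 together (0.0894). The rise with RNY1+/+ ProteinFx was lost without PBS replicate 2 or 4, without RNY1+/+ ProteinFx replicate 4 (adjusted p = 0.0519 to 0.0639) and with total-count scaling (0.0523). The gene rested on 15 to 136 counts per library.

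The LXR target list held genes that rose and genes that fell with each fraction. Of 14 tested targets, 7 rose and 7 fell with RNY1+/+ EVFx, and 5 and 5 with RNY1-/- EVFx, 2 and 5 with RNY1+/+ ProteinFx and 2 and 5 with RNY1-/- ProteinFx, with medians of 0.06, -0.02, 0.04 and -0.30 on the log2 scale. Of all genes, 44.5%, 58.3%, 55.2% and 35.7% were past the test in the same order. Between genotypes 4 of 13 were higher and 4 lower in EVFx, and 1 of 14 higher and 1 lower in ProteinFx, where 52.1% and 5.57% of all genes were past the test in either direction. Scd1, which encodes stearoyl-CoA desaturase, rose with EVFx (log2 fold change 2.98 for RNY1+/+ and 2.96 for RNY1-/-), whereas Apoe, the apolipoprotein of cholesterol export, fell with RNY1+/+ EVFx (-1.05, SE 0.31, adjusted p = 0.0178), with RNY1-/- EVFx (-2.10, SE 0.33, adjusted p = 0.000267) and with RNY1+/+ and RNY1-/- ProteinFx (-1.90 and -1.52). Between genotypes Scd1 was lower with RNY1-/- ProteinFx (-1.14, SE 0.23, adjusted p = 0.0105) and Apoe with RNY1-/- EVFx (-1.04, SE 0.17, adjusted p = 0.000501).

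Pparg fell with every fraction, and PBS libraries did not overlap with any treated library. The level was 56.05, 53.2, 56.4 and 50.4 TMM-scaled CPM with PBS, 12.5, 11.4, 13.3 and 9.37 with RNY1+/+ EVFx and 18.7, 15.2, 15.3 and 12.2 with RNY1-/- EVFx. It was 16, 13.2, 19.7 and 12.2 with RNY1+/+ ProteinFx and 24.9, 24.9, 29.4 and 29.5 with RNY1-/- ProteinFx. The last group lay between PBS and the other 3 without overlap. The log2 fold changes against PBS were -2.19, -1.79, -1.80 and -0.98 (SE 0.13, 0.14, 0.15 and 0.12) in the same order, with the largest adjusted p at 0.000162. Pparg was higher with RNY1-/- than with RNY1+/+ in ProteinFx (0.83, SE 0.16, adjusted p = 0.0093) and in EVFx (0.42, SE 0.15, adjusted p = 0.0333), and the 2 differences were 0.41 apart (adjusted p = 0.158). The EVFx groups overlapped, and that call was lost without RNY1+/+ replicate 2 or 4, without RNY1-/- replicate 1 or 2 (adjusted p = 0.0541 to 0.137) and with total-count scaling (0.078).

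Of 12 tested PPARγ targets, 7 fell and 1 rose with RNY1+/+ EVFx, 8 and 1 with RNY1-/- EVFx, 8 and 0 with RNY1+/+ ProteinFx and 6 and 0 with RNY1-/- ProteinFx (lower over all genes: 22.8%, 30.7%, 29.3% and 19%), with medians of -0.64, -0.67, -0.70 and -0.60 on the log2 scale. Angptl4, an inhibitor of lipoprotein lipase, was at 29 to 62 counts per PBS library and at 3 to 6 with RNY1+/+ EVFx, 2 to 5 with RNY1-/- EVFx, 0 in every library with RNY1+/+ ProteinFx and 3 to 15 with RNY1-/- ProteinFx. Cd36, a scavenger receptor for fatty acids, fell by a log2 fold change of -1.88 (SE 0.17, adjusted p = 5.10e-06) with RNY1+/+ EVFx. Between genotypes in ProteinFx 2 of 11 targets were higher and 0 lower (2.20% and 3.37% of all genes). The 2 were Plin2 of lipid droplets (0.56, SE 0.15, adjusted p = 0.0481) and Cpt1a of fatty acid oxidation (0.47, SE 0.11, adjusted p = 0.0241). In EVFx 6 were higher and 3 lower, where 25.5% and 26.6% of all genes were. The 2 largest differences there were lower, unlike that of Pparg. They were those of Ucp2 (-0.95, SE 0.18, adjusted p = 0.00107) and Adipor2 (-0.70, SE 0.12, adjusted p = 0.000676).

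**Figure D3:**
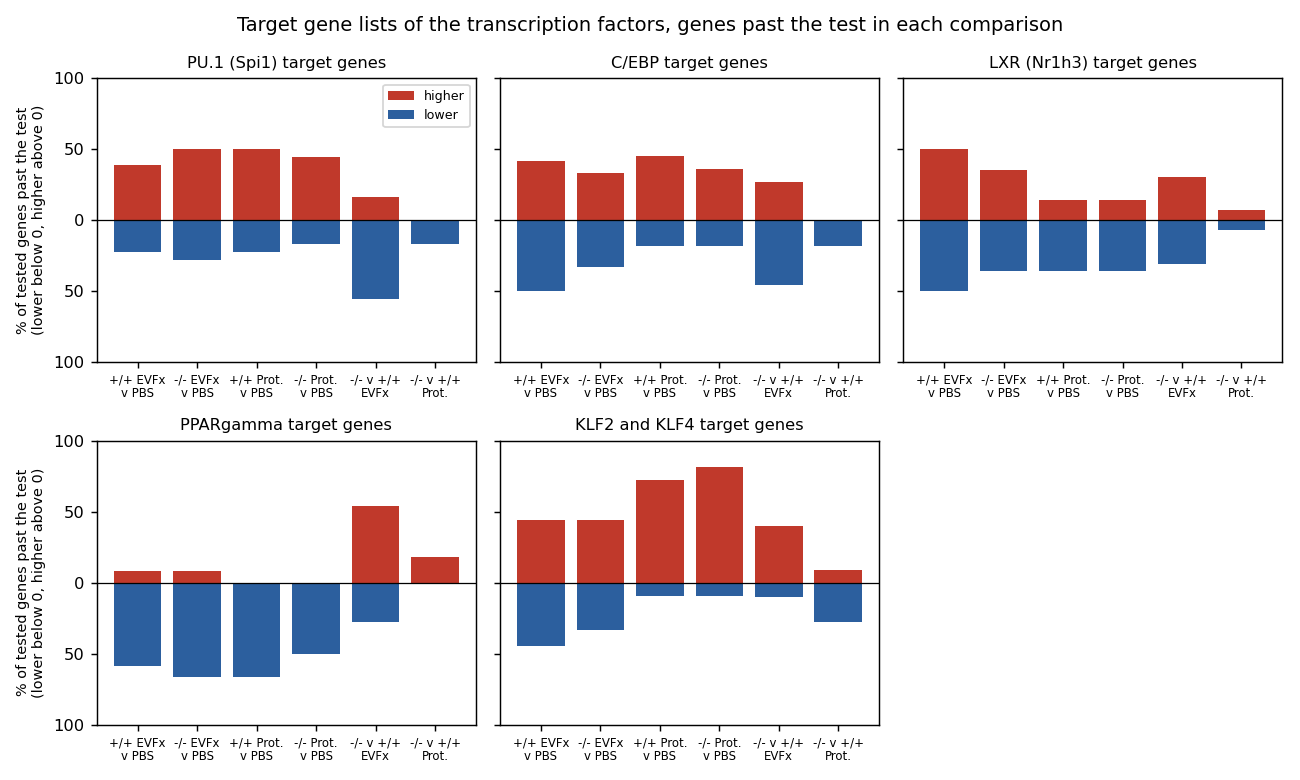
Share of the tested genes of each of 5 target lists that passed the test (adjusted p under 0.05) in 6 comparisons, higher above 0 in red and lower below 0 in blue, in percent. PPARγ targets fell in 6 to 8 of 12 with every fraction, and KLF2 and KLF4 targets rose in 8 and 9 of 11 with RNY1+/+ and RNY1-/- ProteinFx. The shares of all genes that fell were 22.8% and 30.7% with RNY1+/+ and RNY1-/- EVFx. They were 29.3% and 19% with RNY1+/+ and RNY1-/- ProteinFx, where 25.9% and 16.7% of all genes rose.

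Across the 9 genes, the genotype comparison within EVFx put 7 past the test, 4 higher (Maf, Klf2, Klf4 and Pparg) and 3 lower (Spi1, Cebpa and Nr1h3) with RNY1-/-, where 52.1% of all 10321 genes were past it. Within ProteinFx 6 were past the test, 3 higher (Klf2, Klf4 and Pparg) and 3 lower (Cebpb, Cebpd and Nr1h3), where 5.57% of all 10471 genes were (2.20% higher and 3.37% lower). By a further limit of an absolute log2 fold change above 1, only Cebpa in EVFx remained (1 of 9, background 2.35%), and 0 of 9 in ProteinFx (1.82%). The EVFx groups did not overlap for 6 of 9 genes, where 44.1% of all genes did not. The 6 genes past the test in ProteinFx were also those whose 2 groups did not overlap, against 12.4% of 10638 genes. Leaving out 1 library at a time left 5 to 7 of the 9 genes past the test in EVFx and 4 to 7 in ProteinFx, the lowest without RNY1+/+ replicate 4. The ProteinFx background rested on 583 genes, which became 234 without that library and 2903 without RNY1-/- replicates 3 and 4, when 8 of the 9 genes were past the test. For 5 of these 6 genes the RNY1-/- ProteinFx mean lay nearer to the PBS mean than the RNY1+/+ mean did, and for Klf4 it lay farther from it. This turned for Klf2 with GC and length trends removed, when RNY1-/- lay 0.88 (adjusted p = 0.00624) and RNY1+/+ 0.21 (adjusted p = 0.397) from PBS on the log2 scale. The difference between the genotype differences of both fractions was past the test for 5 of 9 genes (Maf, Cebpa, Cebpb, Cebpd and Klf4), with a background of 33.0% (16.8% higher, 16.2% lower), and for 1 of 9, Cebpa, with the fold limit (7.79%).

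**Figure D4:**
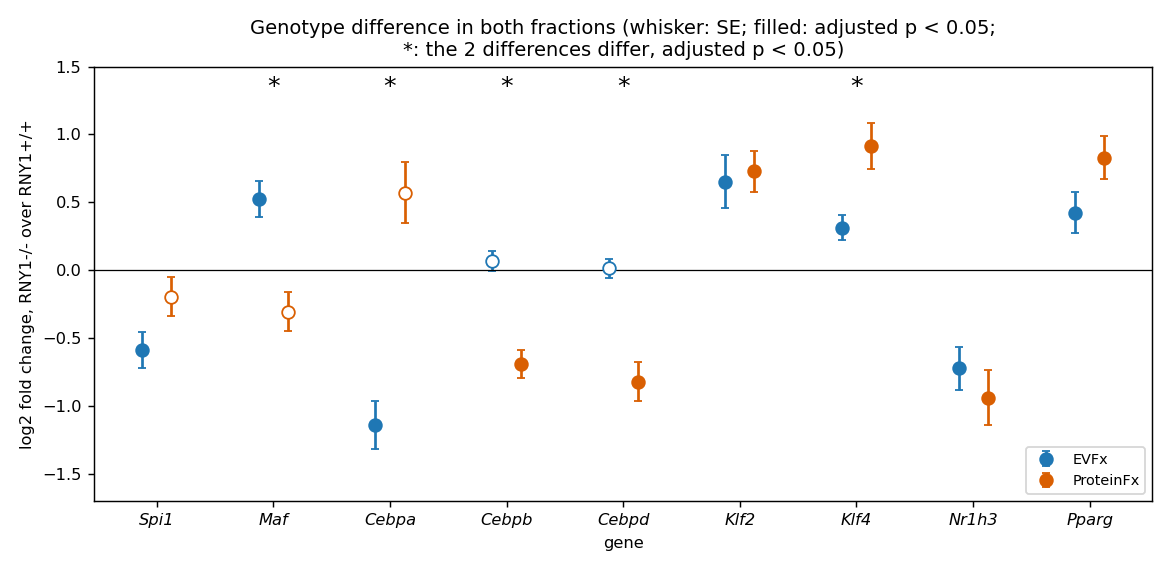
Log2 fold change of RNY1-/- over RNY1+/+ for each gene in EVFx (blue) and ProteinFx (orange), with whiskers for 1 SE, open circles where the adjusted p was 0.05 or above, and asterisks where the 2 fractions differed by an interaction test. Klf2, Klf4 and Pparg were higher and Nr1h3 lower in both fractions (the EVFx call of Nr1h3 was lost, at -0.25, with GC and length trends removed), while Cebpb and Cebpd lay near 0 in EVFx (signs turned with total-count scaling) and at -0.69 and -0.82 in ProteinFx.

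Fold changes over all genes went with the GC content of transcripts in most comparisons, and several of the 9 genes are GC-rich. Spearman's rho between the log2 fold change and exon GC over 10019 genes was -0.65 for RNY1-/- against RNY1+/+ EVFx and 0.16 over 10132 genes for ProteinFx. Against PBS it was -0.09, -0.42, -0.46 and -0.49 for RNY1+/+ EVFx, RNY1-/- EVFx, RNY1+/+ ProteinFx and RNY1-/- ProteinFx. The 9 genes ranged from 47.4% GC (Maf, percentile 41.9) to 67.2% (Cebpb), and 5 of them lay at or above percentile 89.2. In EVFx the genotype calls of Maf, Cebpa, Klf2, Klf4 and Pparg held with the trends removed and those of Spi1 and Nr1h3 did not, while Cebpb and Cebpd became past the test, and in ProteinFx all 6 held. Whether the GC trend is technical was not tested. The gene lists and the genes named from them were not examined with the trends removed.

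**Figure D5:**
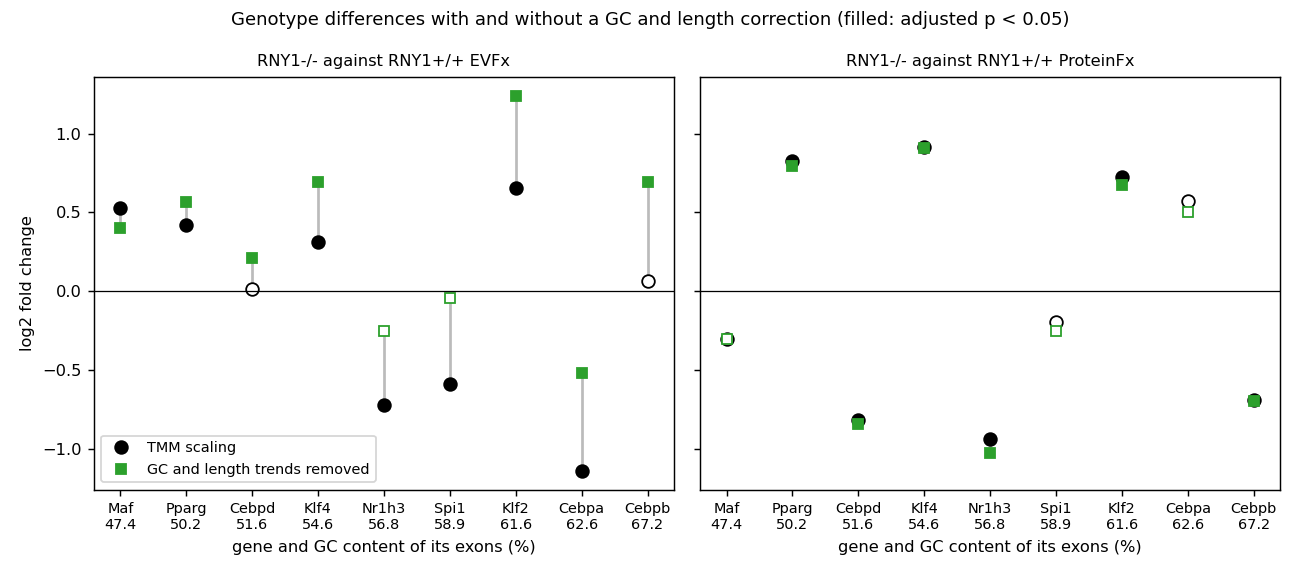
Log2 fold change of RNY1-/- over RNY1+/+ in EVFx (left) and ProteinFx (right) for the 9 genes in order of exon GC content, with TMM scaling (black circles) and with each library's GC and length trends removed (green squares); open symbols had an adjusted p of 0.05 or above. In EVFx Spi1 moved from -0.59 to -0.04 and Nr1h3 from -0.72 to -0.25, losing their calls, while Cebpb moved from 0.07 to 0.69 and Cebpd from 0.01 to 0.21 and gained theirs, whereas in ProteinFx the same 6 genes were past the test both ways.

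Between fractions of the same genotype, RNY1+/+ ProteinFx and EVFx differed for 6 of 9 genes (3 higher, 3 lower in ProteinFx; background 63.3%, of which 31.1% higher and 32.2% lower), and RNY1-/- ProteinFx and EVFx for 8 of 9 (5 higher, 3 lower; background 29.2%, of which 15.2% higher and 14.1% lower). With the fold limit these were 3 (13.5%) and 1 (9.03%) of 9, and 5 and 7 genes had groups without overlap (54.8% and 29.8% of all genes). Maf and Klf2 were higher with ProteinFx for both genotypes, Klf2 by 1.27 (SE 0.18, adjusted p = 3.06e-05) for RNY1+/+ and 1.34 (SE 0.16, adjusted p = 3.44e-05) for RNY1-/-. Pparg was also higher with ProteinFx, by 0.40 (SE 0.17, adjusted p = 0.0438) and 0.81 (SE 0.15, adjusted p = 0.00103), and the first call was lost without any of 5 single libraries (adjusted p up to 0.153) with DESeq2 (0.0517) and without a filter (0.0627). Nr1h3 was lower with ProteinFx for both (-0.55 and -0.78, adjusted p = 0.00609 and 0.0134), the latter at -0.62 (adjusted p = 0.116) without RNY1-/- ProteinFx replicates 1 and 2. Cebpa was lower with RNY1+/+ ProteinFx than with RNY1+/+ EVFx (-1.04, SE 0.17, adjusted p = 0.000109) and higher with RNY1-/- ProteinFx than with RNY1-/- EVFx (0.67, SE 0.22, adjusted p = 0.039), the latter lost without any of 6 single libraries, with all 20 libraries in 1 fit (adjusted p = 0.16) and at 0.10 (adjusted p = 0.729) without RNY1-/- ProteinFx replicates 1 and 2. Cebpb and Cebpd were past the test between fractions for RNY1-/- (-0.84 and -0.82, adjusted p = 4.52e-05 and 0.000469), against -0.08 and 0.03 for RNY1+/+. With GC and length trends removed the RNY1+/+ value of Cebpb turned to 0.56 (adjusted p = 0.000441), those of Spi1 (-0.18) and Nr1h3 (-0.05) were no longer past the test, that of Klf4 became so (0.54, adjusted p = 0.0019), and those of Cebpa and Klf2 moved to -0.39 (adjusted p = 0.013) and 1.89 (adjusted p = 6.94e-07). For Spi1 in RNY1-/- fluid the value was -0.37 (adjusted p = 0.0919), and it was past the test with the replicate number as a block (-0.38, adjusted p = 0.00853), GC and length trends removed (-0.40, 0.00368) and without RNY1-/- ProteinFx replicate 2 (-0.49, 0.0312).

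Other macrophage transcription factors changed in both directions. Of 59 other factors listed, 44 to 47 were tested. With RNY1+/+ EVFx 13 rose and 13 fell, with RNY1-/- EVFx 17 and 15, with RNY1+/+ ProteinFx 20 and 11, and with RNY1-/- ProteinFx 9 and 6, where 44.5%, 58.3%, 55.2% and 35.7% of all genes were past the test. Spic, a PU.1 relative of iron-recycling macrophages, rose with EVFx by a log2 fold change of 4.19 for RNY1+/+ and 4.20 for RNY1-/- (SE 0.17 and 0.18), and was lower with ProteinFx than with EVFx by -3.75 (SE 0.15, adjusted p = 5.44e-11) for RNY1+/+. Ahr, the aryl hydrocarbon receptor, rose with EVFx (2.89 and 3.04) and RNY1+/+ ProteinFx (1.94), from 4 to 10 counts per PBS library. Tfeb, a regulator of lysosomal genes, fell with RNY1+/+ and RNY1-/- ProteinFx (-2.28 and -2.21) and with RNY1-/- EVFx (-1.72, adjusted p = 0.00416). Its counts were low, at 13 to 49 per PBS library and at 4 to 7 and 1 to 14 with RNY1+/+ and RNY1-/- ProteinFx. Between genotypes in ProteinFx 4 of 45 were past the test, 1 higher and 3 lower, Spic (-1.08, SE 0.28, adjusted p = 0.0411) and Ets2 (-0.91, SE 0.19, adjusted p = 0.0129) among the latter. Spic held 15 to 40 counts per RNY1+/+ and 7 to 22 per RNY1-/- ProteinFx library. In EVFx 28 of 45 were past the test, 18 higher and 10 lower. Over all genes 5.57% in ProteinFx (2.20% higher and 3.37% lower) and 52.1% in EVFx (25.5% higher and 26.6% lower) were past the test.

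The PU.1 target list moved in both directions, with genes up and down against PBS for each fraction. Its medians in the order of the fractions above were 0.27, 0.31, 0.49 and 0.37 on the log2 scale. Of 18 targets, all tested, 7 rose and 4 fell with RNY1+/+ EVFx, 9 and 5 with RNY1-/- EVFx, 9 and 4 with RNY1+/+ ProteinFx and 8 and 3 with RNY1-/- ProteinFx, against the 44.5%, 58.3%, 55.2% and 35.7% of all genes past the test. Cybb, the catalytic subunit of the phagocyte oxidase, rose with EVFx (2.14, SE 0.13, adjusted p = 3.27e-07 for RNY1+/+ and 2.38, SE 0.14, adjusted p = 1.79e-07 for RNY1-/-), and the Fc receptor genes Fcgr2b and Fcgr1 rose with RNY1+/+ ProteinFx (2.54 and 2.29). The mean of Cybb was also higher with RNY1+/+ and RNY1-/- ProteinFx (4315.5 and 2980.7 TMM-scaled CPM) than with PBS (1433.1). Fcgr2b also had higher means with RNY1+/+ and RNY1-/- EVFx (531.6 and 602.4) than with PBS (270.3), while Fcgr1 missed the threshold with RNY1+/+ EVFx (0.48, adjusted p = 0.0879). In RNY1-/- against RNY1+/+ EVFx 10 of 18 were lower and 3 higher (26.6% and 25.5% of all genes), led by Laptm5 (-1.04, SE 0.15, adjusted p = 0.000255). These targets were not examined with GC and length trends removed. In ProteinFx 3 were lower and 0 higher (3.37% and 2.20% of all genes), with Msr1 (-0.69, SE 0.18, adjusted p = 0.0379) and Cybb (-0.53, SE 0.13, adjusted p = 0.0269) at the largest differences.

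The genes whose levels ran most closely with each of the 9 were found by Pearson's r of log2 levels over the 20 libraries, among 7461 genes with a mean of at least 10 CPM. The libraries share 5 treatments, so these values describe a common pattern over groups and carry no test. Cebpb ran closest with Acod1 (r = 0.991), the itaconate-producing enzyme of activated macrophages, and Aoah (0.989), which degrades lipopolysaccharide. Cebpd ran closest with Sod2 (0.983) and Tlr1 (0.982), Cebpa with Ctsd (0.992) and Rps9 (0.987), and Pparg with Cd300lb (0.978) and Reps2 (0.970). Maf ran with Tcf7l2 and Evi2b (both 0.981), Klf2 with Sgpp1 (0.967) and Lmo2 (0.964), and Spi1 with Ube2s (0.952). The closest values were lower for Klf4 (Fchsd2, 0.905, and Bltp3a, 0.900) and Nr1h3 (Ehd1, 0.870, and Tbc1d10b, 0.864).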

How the data were processed

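Bone marrow-derived macrophages were profiled by 3′-end RNA sequencing of polyadenylated RNA with unique molecular identifiers in 20 libraries, 4 for each of 5 groups taken from the sample labels. Per the submitters' processing notes and the study's methods, the authors trimmed reads with fastp 0.24.0, aligned them to GRCm39 with STAR 2.7.11, collapsed identifiers, and counted exons and 3′ UTRs by strand with featureCounts (Subread 2.1.1), sharing multimapped reads fractionally. The values that the authors deposited are expected counts, not normalized, for 78409 gene rows. The CPM values that the authors deposited beside them are each count over its library's total.

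Expected counts were rounded and tested with edgeR 4.0.16 (R 4.3.3), using TMM scaling, filterByExpr with a floor of 3 CPM on the mean, and the quasi-likelihood F test with Benjamini-Hochberg adjustment over all genes tested. Each comparison used its own groups, and the difference between fractions in the genotype difference was an interaction term over 4 groups. The SE was derived from the F statistic and the size of the log2 fold change. Calls are adjusted p under 0.05. Levels are TMM-scaled CPM over all 20 libraries, with SD over n = 4. Totals of 2510005 to 8277366 counts limit precision most for Nr1h3 and Klf2. The fit was checked on simulated counts. These held no split of libraries within a group, no GC trend and no pairing, so the check cannot speak to such features.

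The members and gene lists were chosen with earlier results of these data known. Genes named from a list were the 2 past the test with the largest absolute log2 fold change in a comparison, plus, chosen after their values were seen, the same genes in other comparisons. Alternatives were DESeq2 1.42.0, total-count scaling, other filters, all 20 libraries in 1 fit, a replicate block, removal of GC and length trends (natural splines, 4 degrees of freedom; GC from a GRCm38 annotation by gene ID, matched for 96.7% to 97.1% of genes) and leaving out each library. Leaving out PBS or RNY1-/- ProteinFx libraries in pairs was chosen after seeing the data. Same-numbered libraries deviated together in every pair for RNY1-/- EVFx against PBS (correlations 0.13 to 0.38) and for RNY1-/- ProteinFx against RNY1-/- EVFx (0.22 to 0.40). For RNY1-/- ProteinFx against PBS the correlations were 0.51, 0.62, 0.64 and 0.02. Such a pairing is read from the data and not from the labels. Promoter windows came from RefSeq. A target list and some named genes are not reported here. Compositions of EVFx and ProteinFx were not analysed here.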

Additional observations from a re-analysis of the deposited data

Results flagged for a closer look

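In 5 of the 45 sets of 4 libraries (9 genes in 5 groups), 1 library lay far from the other 3 by the gap to its neighbour over the whole range, a criterion that chance meets in about 1 set of 20. Maf in PBS replicate 3 was 1393.2 TMM-scaled CPM, against 982.7 to 1013.3 in the others. Cebpd in RNY1+/+ EVFx replicate 2 was 60.56, against 53.93 to 54.59. Klf4 in RNY1-/- EVFx replicate 1 was 28.22, against 29.35 to 29.51. Nr1h3 was 8.921 in PBS replicate 1, against 5.447 to 6.021, and 6.31 in RNY1-/- EVFx replicate 4, against 10.01 to 10.75.

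For 5 genes the difference between RNY1-/- and RNY1+/+ fluid was not the same in ProteinFx as in EVFx by edgeR's interaction test. The ProteinFx difference minus the EVFx difference, on the log2 scale, was -0.835 for Maf (adjusted p = 0.00945), 1.725 for Cebpa (adjusted p = 0.00196), -0.763 for Cebpb (adjusted p = 0.00159), -0.845 for Cebpd (adjusted p = 0.00266) and 0.596 for Klf4 (adjusted p = 0.0282). With GC and length trends removed the value was 1.054 for Cebpa, -1.364 for Cebpb and 0.216 for Klf4 (adjusted p = 0.561). The value of Maf was -0.589 (adjusted p = 0.0952) without RNY1-/- ProteinFx replicates 1 and 2.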

How the results depend on the processing

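Of 1512 values of the 9 genes recomputed under alternatives, 1367 kept their direction and their side of the threshold, 59 passed the test newly, 57 no longer passed it and 29 changed sign. DESeq2 kept 78 of 81, total-count scaling 74, no filter 72, and the removal of GC and length trends 60. With the fold limit the genes past the test were 5 (RNY1+/+ ProteinFx) and 3 (RNY1-/- ProteinFx) against PBS, 1 (EVFx) and 0 (ProteinFx) between genotypes, 3 (RNY1+/+) and 1 (RNY1-/-) between fractions, and 1 for the difference between genotype differences; fewer genes pass a stricter limit by construction. With GC and length trends removed, and again with the replicate block added, signs turned for Spi1 against PBS with RNY1-/- EVFx (0.290 and 0.294) and RNY1+/+ ProteinFx (0.135 and 0.148), Klf2 with RNY1+/+ ProteinFx (0.206 and 0.204), Nr1h3 with RNY1-/- ProteinFx (0.202 and 0.228), Cebpb in RNY1+/+ ProteinFx against EVFx (0.564 and 0.569), and, between genotype differences, Spi1 (-0.189 and -0.196) and Klf2 (-0.545 and -0.552). Between EVFx genotypes Cebpb became -0.005 and Cebpd -0.057 by total counts, and Cebpd -0.028 without a filter. Cebpd in RNY1+/+ ProteinFx against EVFx became -0.014 without a filter. With libraries left out in pairs, Spi1 became -0.135 (RNY1+/+ EVFx against PBS, without PBS replicates 3 and 4), 0.221 and 0.042 (RNY1-/- EVFx and RNY1+/+ ProteinFx against PBS, without PBS replicates 1 and 2) and 0.015 (between ProteinFx genotypes, without RNY1-/- replicates 3 and 4). Leaving out 1 library at a time, the values that crossed 0 ranged from -0.019 to 0.039 for Cebpd between EVFx genotypes, from -0.038 to 0.069 for Cebpd in RNY1+/+ ProteinFx against EVFx, and from -0.076 to 0.189 for Klf2 between genotype differences. The causes were not tested.

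The replicate block changed 5 of 81 calls. It added Nr1h3 for RNY1-/- EVFx against PBS (0.53, adjusted p = 0.0366) and Spi1 for RNY1-/- ProteinFx against RNY1-/- EVFx (-0.38, adjusted p = 0.00853). For RNY1-/- ProteinFx against PBS, same-numbered libraries correlated at 0.51, 0.62, 0.64 and 0.02, and 3 of 4 correlated best with their own number. The block added Spi1 (-0.72, adjusted p = 6.62e-05) and Maf (0.45, adjusted p = 0.000694) there. Between ProteinFx genotypes, where correlations ran from -0.28 to 0.21, it lost Klf2 (0.72, adjusted p = 0.0526). The labels do not state if the numbers pair libraries. Over all genes, calls for RNY1-/- ProteinFx against PBS moved from 3878 to 6612 with the block, 1455 without PBS replicates 1 and 2, 1575 without RNY1-/- replicates 3 and 4 and 2421 to 5728 with 1 library left out. Calls for RNY1+/+ ProteinFx against PBS moved from 5981 to 3901 without PBS replicates 1 and 2. Between EVFx genotypes they moved from 5379 to 3319 with GC and length trends removed. Between ProteinFx genotypes they moved from 583 to 942 without a filter, 367 with the block, 895 with GC and length trends removed and 234 to 881 with 1 library left out. Calls for RNY1-/- ProteinFx against EVFx moved from 3046 to 4700 without RNY1-/- ProteinFx replicates 3 and 4. For the difference between genotype differences they moved from 3449 to 2036 with all 20 libraries in 1 fit, 2137 and 2291 with the GC correction without and with the block, 350 and 5666 without RNY1-/- ProteinFx replicates 1 and 2 or 3 and 4, and 1916 to 4629 with 1 library left out. Total-count scaling moved the median of all genes against PBS by -0.18, -0.24, -0.17 and -0.07 on the log2 scale in the order of the report, and by 0.17 for RNY1-/- ProteinFx against EVFx.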
